A study of Homo sapiens with 4 samples.

Results

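The GU hairpin is 1 of 9 synthetic DNA hairpins that were offered to lysates of single cells in the Haircut assay, and it is read at 61 positions. Its members are the 61 repair rows whose substrate name is GU, out of 549 repair rows in all, and every one of them is accounted for below. The rule that picks them uses the substrate name and no measured value. The cells are MDA MB 134VI (MM134), an established human line of invasive lobular breast carcinoma with an estrogen receptor, labelled wild type. Both groups were deprived of hormone in medium with charcoal-stripped serum. One group then had vehicle (0.01% ethanol) and the other 100 nM estradiol, each for 24 h. There is 1 library per treatment and assay, and both repair libraries are used here with the mRNA libraries of the same cells. A single line was used, and nothing in the labels gives a second culture of either group.

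Uracil enters DNA in 2 ways: cytosine loses its amino group opposite guanine, or a polymerase inserts uracil opposite adenine. A DNA glycosylase cuts the uracil base away, the endonuclease APE1 (gene APEX1) nicks the strand at the abasic site, and a polymerase and a ligase close the gap. UNG is the main uracil glycosylase of proliferating cells and is known for its link to DNA synthesis. TDG and MBD4 are known for uracil and thymine opposite guanine, and SMUG1 also takes uracil from double-stranded DNA. In Haircut, a cell's enzymes process the lesion of a hairpin that carries the cell's barcode, and the nucleotide where the strand ends is read as a position. The name GU reads as a guanine and uracil pair. The sources used here do not spell this out, and they give neither the lesion's place, the direction in which positions are numbered, nor the hairpin's sequence, so no sequence is shown. Positions 44 to 50 are called the window: it was chosen with earlier results of these data known, as a region with many ends in the Abasic and uracil hairpins and few in the unmodified Normal hairpin.

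The vehicle library held 4940 cells and 964857 GU UMIs (unique molecules), and the estradiol library 3367 cells and 880462 GU UMIs. The median cell had 194 GU UMIs with vehicle (interquartile range 157 to 232, full range 2 to 490) and 261 with estradiol (218 to 306, full range 4 to 744). Only 3 vehicle cells and 1 estradiol cell had fewer than 20. The libraries shared 4 cell barcodes. Cells are not replicates, so with 1 library per treatment no test between treatments was possible. Phases and clusters are compared within each library and given for both. No test of them was run, since over 2 libraries an exact paired permutation test (two-sided) cannot go below p = 0.5. Ratios are given as log2 values with exact 95% intervals that treat each UMI as independent, so the intervals cover counting error only. All 10 luminal markers were present in the mRNA of both libraries, and CDH1, the cadherin that lobular carcinomas often lose, was low (10.1 and 10.3 UMIs scaled per library, CPM, vehicle first). Of 4 mesenchymal markers, VIM was at 158 and 119 CPM, COL1A1 at 26 and 21.1, and COL3A1 and PDGFRB at 0. All 5 basal or myoepithelial markers were at 0, and so were 3 of 5 immune or endothelial markers, with the other 2 at 1 UMI each.

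The GU hairpin made up 20.4% of repair UMIs with vehicle (95% interval 20.3 to 20.4) and 19.7% with estradiol (19.6 to 19.7), a log2 ratio of -0.05. Its recovery thus differed little between libraries beside the differences in profile below. Ends of GU were spread widely but unevenly. The 21 positions with at least 1% of GU UMIs in either library held 87.2% of them with vehicle and 86.9% with estradiol. Position 6 was the highest with vehicle at 13.9% and position 15 with estradiol at 13.3%. The values of the same positions in the other library were 12.7% and 12.8%. Position 1 followed at 9.97% with vehicle and 8.66% with estradiol, and the 3 positions together held 36.7% and 34.7%.

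Beyond these 3, the frequent ends lay mostly between positions 7 and 21, with position 45 the only one above 1% past position 29. Vehicle is given first and estradiol second. Position 14 held 6.0% and 6.07%, position 21 5.41% and 5.85%, position 13 5.20% and 5.54%, and position 7 4.54% and 4.11%. Position 45 held 4.98% and 5.84%, and ranked 7 and 6 among the 61. The other 13 positions lay between 0.98% and 3.08%: they are positions 2, 4, 5, 8, 10, 11, 12, 16, 17, 18, 19, 28 and 29. The remaining 40 positions were each below 1% in both libraries. By range, positions 1 to 10 held 38.9% and 35.9%, positions 11 to 20 held 37.6% and 39.0%, and positions 21 to 30 held 12.3% and 12.8%. Positions 31 to 43 held 2.95% and 2.62%, the window 7.21% and 8.48%, and positions 51 to 61 held 1.01% and 1.19%. The profile therefore has a broad region of ends from 1 to 30, a low stretch, and a separate sharp peak at position 45.

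The GU window held a smaller share than that of the other uracil hairpins and a larger one than that of Normal. The excess over Normal follows from how the window was chosen and is given as a description. The window held 7.21% of GU UMIs with vehicle (7.16 to 7.27) against 0.113% of Normal UMIs, and 8.48% (8.42 to 8.54) against 0.102% with estradiol. In the same libraries the window held 27.4% and 28.0% of Uracil1, 15.3% and 15.4% of Uracil2, 10.2% and 11.5% of Uracil3, and 63.8% and 57.9% of the Abasic hairpin, which carries the intermediate that glycosylases leave. Window levels of riboG were 6.13% and 6.0%. The CI hairpin, at 0.134% and 0.117%, and TI, at 0.253% and 0.212%, had few ends there, like Normal. Position 45 was the highest of all 61 positions in Uracil1, but not in GU, Uracil2 or Normal. Inside the window, position 45 held 69.1% of the GU UMIs with vehicle and 68.9% with estradiol, and the other 6 positions shared the rest. Position 46 was at 0.555% and 0.647% of GU UMIs, position 47 at 0.536% and 0.646%, position 48 at 0.432% and 0.484%, position 50 at 0.270% and 0.315%, position 49 at 0.258% and 0.341%, and position 44 at 0.180% and 0.207%. Ends past 45 were thus more frequent than ends just before it.

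With estradiol, the GU profile held smaller shares at positions 1 to 10 and 31 to 43 and larger shares in the other 4 ranges. On the log2 scale the ranges 51 to 61 (0.25) and 44 to 50 (0.23) differed most, followed by 31 to 43 (-0.17), 1 to 10 (-0.12), 21 to 30 (0.06) and 11 to 20 (0.05). In share of UMIs the gain at positions 11 to 20 was about as large as that in the window. Of the 54 positions with at least 500 UMIs in both libraries together, 31 had a higher share with estradiol and 23 a lower one. The interval excluded a ratio of 1 on the higher side at 26 of the 54 and on the lower side at 19 of the 54. Over 390 repair rows it did so for 32.6% on the higher side and 35.1% on the lower side, so the lower share was near that of all rows. Intervals narrow as UMIs rise, and hairpins differ in UMIs, so these counts are a description. No position differed by 1.5-fold or more (0 of 54, where 0.256% of 390 repair rows did). The 54 ratios ran from -0.44 to 0.40 with a median of 0.05. The other 7 positions held 2181 UMIs in all and are not compared singly.

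Direction followed position in runs. Their limits were drawn after the values were seen, so the counts describe the profile and are no support for it. The same counts were not made for other hairpins. All 7 of positions 1 to 7 were lower with estradiol, 16 of 18 from 8 to 25 were higher, 14 of 15 from 26 to 43 were lower, and 14 of 14 from 44 on were higher. The highest ratio was at position 49 (log2 0.40, interval 0.32 to 0.48). Position 55 followed at 0.32, position 51 at 0.31, position 53 at 0.29 and position 57 at 0.28, each of them with less than 0.3% of GU UMIs. The lowest ratio was at position 38 (log2 -0.44, -0.59 to -0.30), where 968 vehicle UMIs and 650 estradiol UMIs were counted. Position 43 was at -0.37, position 36 at -0.26, position 3 at -0.24 and position 31 at -0.22. These 10 extremes are mostly rare ends, so most of the UMIs that moved were elsewhere. In share of UMIs, positions 1 and 6 were lower by the most and position 45 higher by the most.

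Every window position was higher with estradiol. Position 45 had a log2 ratio of 0.23 (0.21 to 0.25), position 46 of 0.22, position 47 of 0.27, position 44 of 0.20, position 48 of 0.16 and position 50 of 0.22. The whole window was 1.18-fold higher (1.16 to 1.19, log2 0.23, 0.22 to 0.25). Of the other hairpins, Uracil3 had a window ratio of 0.17, Uracil1 0.03, Uracil2 0.01, riboG -0.03, Abasic -0.14, Normal -0.15 (-0.30 to 0.01), CI -0.19 and TI -0.26. The interval of Uracil3 (0.11 to 0.23) overlapped that of GU, and over UMIs of all repair substrates Uracil3 (0.24) was above GU (0.18). GU and Uracil3 thus had the highest window ratios, in an order that depends on the denominator, while Uracil1 and Uracil2, which share the uracil name, differed little between treatments.

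The GU window differed more between S and G1 cells than between treatments. In both libraries the order was S, then G2M, then G1, by the cell cycle phase the authors gave each cell. With vehicle the window held 6.27% of GU UMIs in 2493 G1 cells (6.20 to 6.34), 9.69% in 773 S cells (9.54 to 9.84) and 7.38% in 1674 G2M cells (7.29 to 7.46). With estradiol it held 7.22% in 1163 G1 cells (7.13 to 7.32), 10.6% in 977 S cells (10.5 to 10.7) and 8.0% in 1227 G2M cells (7.91 to 8.09). None of the 3 intervals overlapped another within a library. S over G1 was a log2 ratio of 0.63 with vehicle (0.60 to 0.66) and 0.55 with estradiol (0.52 to 0.58). G2M over G1 was smaller, at 0.23 (0.21 to 0.26) and 0.15 (0.12 to 0.17), near or below the 0.23 between treatments. Median GU UMIs per cell also moved with phase, from 182 in G1 through 197 in S to 213 in G2M with vehicle, and from 250 through 257 to 276 with estradiol; the part of depth in the ratios was not tested.

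Within each phase the estradiol library was still the higher one for GU, by log2 0.20 in G1, 0.13 in S and 0.12 in G2M. For Uracil1 the same ratios were 0.00, -0.04 and 0.00. The Uracil3 window was also higher with estradiol in G1 (9.79% against 9.14%) and in G2M (10.2% against 9.45%). In S it differed little (15.2% against 15.1%). Counting intervals are not given for these Uracil3 values. The libraries also differed in their mix of phases, with 773 of 4940 cells in S with vehicle and 977 of 3367 with estradiol. With the phases of both libraries weighted as in the vehicle library, the GU ratio was 0.16, and weighted as in the estradiol library it was 0.14.

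GU and the other uracil hairpins had the same direction in S, while in G2M Uracil1 and Uracil2 went the other way from GU. The log2 ratio of S over G1 was for Uracil1 0.34 with vehicle and 0.31 with estradiol, for Uracil2 0.38 and 0.32, and for Uracil3 0.72 and 0.63. In G2M over G1, however, Uracil1 was at -0.06 in both libraries and Uracil2 at -0.07 and -0.08, against 0.23 and 0.15 for GU. Uracil3 was at 0.05 and 0.06, with intervals that held 0. The GU window per 100 of the Uracil1 window was 23.5 in G1, 28.6 in S and 28.8 in G2M with vehicle, and 27.1, 32.1 and 31.3 with estradiol. Relative to Uracil1, GU was therefore about as high in G2M as in S. The riboG hairpin also had positive G2M ratios, of 0.55 and 0.19, and Abasic had negative ones, of -0.19 and -0.16.

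Position by position, S cells differed from G1 cells mainly in and just past the window. With vehicle 7 of 48 GU positions were at least 1.5-fold higher in S, where 6.86% of all repair rows tested were, and they were positions 23, 44, 45, 46, 47, 51 and 53. Position 38 was the only one at least 1.5-fold lower, against 2.61% of repair rows. With estradiol 5 of 47 were higher (23, 46, 47, 51 and 53), against 6.19% of repair rows, and 0 of 47 were lower, against 1.63%. Position 45 was 4.49% in G1, 6.90% in S and 4.80% in G2M with vehicle, and the values with estradiol were 5.08%, 7.39% and 5.33%. Positions 46 and 47 differed from it in G2M, where they lay nearer to S than to G1. Position 46 was 0.418% in G1, 0.712% in S and 0.665% in G2M with vehicle, and 0.487%, 0.815% and 0.660% with estradiol. Position 47 was 0.395%, 0.687% and 0.655%, and 0.479%, 0.798% and 0.675%. Position 45 therefore held a smaller share of the window in G2M, 65.1% and 66.7%, than in G1 (71.6% and 70.3%) or S (71.2% and 69.9%).

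G2M cells differed from G1 cells at positions outside the window as well. Positions at least 1.5-fold higher in G2M were about as frequent in GU as over all repair rows. With vehicle 7 of 51 GU positions were at least 1.5-fold higher in G2M than in G1 (16, 23, 46, 47, 51, 53 and 54), a share near the 13.2% of all repair rows. With estradiol 4 of 49 were (16, 23, 51 and 53), also near the 7.43% of repair rows. Position 16 held 1.24% in G1, 1.67% in S and 2.07% in G2M with vehicle, and 1.36%, 1.83% and 2.3% with estradiol, so that S lay between the other phases in both. Position 23 held 0.260%, 0.410% and 0.593% with vehicle and 0.299%, 0.487% and 0.662% with estradiol, a log2 ratio of G2M over G1 of 1.19 and 1.15. This was the largest phase ratio of the named GU positions in both libraries. Its neighbour, position 22, went the other way, from 0.876% in G1 to 0.662% in S and 0.757% in G2M with vehicle, and from 1.12% to 0.791% and 0.882% with estradiol. Positions 22, 23 and 54 lie outside the rule for naming single positions and were chosen after their values were seen.

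Ends at the same positions were read in the other hairpins as well. At position 23 the log2 ratio of G2M over G1 was 2.08 with vehicle and 1.77 with estradiol in Abasic, and 1.68 and 1.44 in Uracil2. It was 0.24 and 0.47 in Uracil1, -0.25 and -0.17 in Uracil3, and 0.05 and -0.02 in Normal. Position 16 had ratios of 0.75 and 0.76 in GU, 0.75 and 0.36 in Abasic and 0.70 and 0.52 in riboG. They were 0.22 and 0.09 in Uracil1, 0.17 and 0.17 in Uracil2, and 0.09 and 0.06 in Uracil3. Normal was at 0.24 and 0.17 there. At position 21, by contrast, Normal had 0.67 and 0.58 and GU 0.41 and 0.30. Uracil2 was the highest at position 21, with 2.03 and 1.64, and riboG was negative, at -0.23 and -0.43. The higher G2M share at position 21 was thus also seen in the unmodified hairpin, whereas at position 23 that hairpin lay near 0.

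The main ends among the first positions were highest in G1 and lowest in G2M. Position 1 held 11.4% of GU UMIs in G1, 9.88% in S and 8.19% in G2M with vehicle, and 9.75%, 8.78% and 7.65% with estradiol. Position 6 held 14.9%, 13.8% and 12.7%, and 13.6%, 12.8% and 11.9%. Position 15, the other main end, ranged only from 12.1% to 13.9% over the 6 combinations of library and phase. Positions 1 to 10 together held 42.0%, 38.7% and 35% with vehicle and 38.5%, 36.0% and 33.6% with estradiol. Past the window, positions 51 to 61 held 0.76%, 1.22% and 1.24%, and 0.97%, 1.35% and 1.27%. Position 51 had log2 ratios of S over G1 of 1.05 and 0.97 and position 53 of 1.05 and 0.77, both larger than position 45 at 0.62 and 0.54. At position 51 of the other uracil hairpins, only Uracil1 had such ratios clearly in both libraries. Uracil1 was at 1.34 (1.05 to 1.63) and 1.38 (1.13 to 1.64), against 0.23 and 0.17 at its position 45. Uracil3 was at 0.83 (0.11 to 1.53) and 1.19 (0.59 to 1.81), intervals that held the 0.72 and 0.66 of its position 45. Uracil2 was at 0.63 (0.35 to 0.91) and 0.12 (-0.11 to 0.36), against 0.33 and 0.27 at its position 45. These ends were rare, with 209 G1 and 195 S UMIs in Uracil1 and 44 and 30 in Uracil3 with vehicle. The GU ends at 52, 54, 55 and 56, named after their values were seen, were at 0.50, 0.50, 0.57 and 0.51 with vehicle and 0.27, 0.46, 0.20 and 0.16 with estradiol. Ratios above that of the main peak were thus found at some ends past the window and not at others.

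Among the 8 clusters of the authors' annotation, the GU window varied more than among phases, and the order was almost the same in both libraries. The sources used here do not say what the clusters were computed from, and they may have used repair rows, so their window levels are a description. Cluster 3 was the highest at 10.5% with vehicle (421 cells) and 10.6% with estradiol (650 cells). Cluster 1, in which S cells are the majority, held 9.29% and 8.88%, and cluster 0, mostly G2M cells, 8.41% and 9.03%. Clusters 6, 5 and 4 followed. Cluster 6 was at 7.19% and 7.32%, cluster 5 at 7.13% and 6.10%, and cluster 4, G2M cells alone, at 6.47% and 6.32%. Cluster 2, nearly all G1 cells, was at 4.58% (1150 cells) and 5.04% (82 cells), and cluster 7 at 4.58% (351 cells) and 4.57% (173 cells). Neighbours whose intervals overlapped were 6 and 5 and then 2 and 7 with vehicle, and 0 and 1, 4 and 5 and then 2 and 7 with estradiol. Cluster 3 exceeded cluster 7 2.28-fold with vehicle (2.19 to 2.38) and 2.32-fold with estradiol.

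Cluster and phase did not reduce to each other. Clusters 0 and 4 both hold mainly G2M cells, and G2M cells of cluster 0 had 8.10% and 8.44% of GU UMIs in the window against 6.47% and 6.32% in cluster 4. In cluster 3, which holds all 3 phases, G1 cells were at 10.2% and 9.45%, above the S cells of cluster 1 with vehicle (9.80%) and below them with estradiol (9.75%). S cells of cluster 3 had the highest values, 12.1% and 12.3%. In cluster 7, G1 and G2M cells were alike, at 4.64% and 4.56% with vehicle and 4.61% and 4.54% with estradiol. S exceeded G1 within cluster 1 by log2 0.35 and 0.43 and within cluster 3 by 0.24 and 0.38, less than the 0.63 and 0.55 over all cells.

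Cluster 3 was at the edge of the 8 clusters at many GU positions, though not at all. It was the highest at 25 of 61 positions with vehicle and 24 with estradiol, among them all 16 from 46 to 61 in both, and the lowest at 14 in each. Positions 58 to 61, from 418 down to 41 UMIs in both libraries together, are too rare to compare singly. The same count was not made for other hairpins, so it is a description. At position 15 clusters 0, 4 and 7 were near cluster 3 or above, with 13.5%, 14.5% and 13.6% against 13.4% with vehicle. At position 45 cluster 1 was slightly above it with vehicle (6.77% against 6.71%). Cluster 3 had the lowest share of all 8 clusters at positions 1 (6.64% and 6.70%) and 6 (9.98% and 10.1%), where cluster 2 had the highest (13.2% and 12.0%, 16.4% and 15.6%). Position 16 was at 2.33% and 2.34% in cluster 3 against 1.12% and 1.17% in cluster 2, with the G2M clusters 0 (2.14% and 2.25%) and 4 (2.06% and 2.21%) near cluster 3. Position 23 was at 0.75% and 0.69% in cluster 3 against 0.20% and 0.21% in cluster 2. Position 53 was at 0.63% and 0.53% against 0.07% and 0.09%. Positions 51 to 61 together held 2.54% and 2.15% in cluster 3, and 0.35% and 0.45% in cluster 2. The windows of Uracil3, Uracil2 and riboG were also higher in cluster 3 than in cluster 2. Uracil3 was at 12.7% and 12.9% against 6.91% and 7.05%, and Uracil2 at 17.1% and 16.2% against 13.1% and 12.9%. The riboG window was 8.87% and 7.49% against 3.42% and 4.03%. Yet the Uracil1 window of cluster 3 was near that of cluster 2, 25.8% and 26.8% against 24.4% and 23.8%. It was highest in cluster 1 at 35.4% and 32.5%. The GU window per 100 of the Uracil1 window was accordingly 40.5 and 39.5 in cluster 3, the highest, and 18.8 and 21.1 in cluster 2, the lowest. The Abasic window of cluster 3 was low, 45.9% and 45.4%, against 74.0% and 68.8% in cluster 2. Repair depth moved with this: the median cell of cluster 3 had 1240 and 1597 repair UMIs, that of cluster 2 had 747 and 949.5, and GU made up 17.5% and 17.9% of repair UMIs in cluster 3 against 22.5% and 21.8% in cluster 2. Its part in the profile was not tested.

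The treatments differed far more in how many cells lay in each cluster than in the GU window within a cluster. Cluster 2, with the low window, held 23.3% of vehicle cells and 2.44% of estradiol cells. Clusters 1 and 3, with high windows, held 12.1% and 8.52% of vehicle cells and 26.8% and 19.3% of estradiol cells. Within clusters the ratio of estradiol to vehicle was positive in cluster 0 (0.10, 0.07 to 0.13) and cluster 2 (0.14, 0.04 to 0.24), and negative in cluster 1 (-0.07, -0.10 to -0.03) and cluster 5 (-0.23, -0.28 to -0.17). In the other 4 clusters the interval held 0, and the median over the 8 was 0.01. With both libraries at the vehicle library's cluster mix, the window was 7.33% with estradiol and 7.21% with vehicle, a log2 ratio of 0.02. At the estradiol library's mix it was 8.48% and 8.49%, a ratio of -0.00. The pooled difference of 0.23 between treatments was thus not seen at equal cluster shares. The clusters may have been computed from repair rows, so this weighting may itself remove a difference in the window and cannot show where it lies. At equal phase shares the ratio was 0.16 with the vehicle mix and 0.14 with the estradiol mix. Treatment and whatever else differed between these libraries cannot be told apart.

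Single cells ranged widely around these values. Over the 4689 vehicle and 3310 estradiol cells with at least 100 GU UMIs (251 and 57 were left out), the median cell had 5.88% of its GU UMIs in the window with vehicle and 7.27% with estradiol. The interquartile ranges were 3.68 to 8.81% and 4.68 to 10.3%, so they overlapped over most of their length. Median cells by phase were 4.86%, 8.68% and 6.15% for G1, S and G2M with vehicle, and 5.69%, 9.23% and 6.82% with estradiol, the same order as in the pooled UMIs. Thinned to 100 GU UMIs each, the cells had a variance 5.93 times the binomial one with vehicle and 7.42 times with estradiol, so they spread more widely than counting alone gives.

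Cells with a high Uracil1 window also had a high GU window. Over 4622 vehicle and 3301 estradiol cells with at least 100 GU and 30 Uracil1 UMIs, Pearson's r was 0.69 and 0.76 and Spearman's rho 0.61 and 0.65. For Uracil2, r was 0.73 and 0.83, for riboG 0.63 and 0.71 (rho 0.39 and 0.34), and for Abasic -0.22 and -0.15. These values are descriptions: hairpins of 1 cell share its barcode, depth and lysate. Where Uracil1 had under 20% of its UMIs in the window, the GU window was 4.22% and 4.74%. It was 7.16% and 8.13% at 20 to 40%, 12.8% and 15.4% at 40 to 60%, and 36.6% and 43.6% in the 105 vehicle and 76 estradiol cells at 60% or more. Those last cells came from 7 clusters in each library, and 65 and 49 cells lay near that limit, between 55 and 65%. Their windows were also raised in riboG, at 21.5% and 27.0%, and in Normal, at 0.275% and 0.337%. Their median repair UMIs were low, 567 and 832, and the part of depth was not tested.

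Transcripts of the enzymes for uracil opposite guanine were also counted in these cells. In the all-gene rows UNG was at 40.4 CPM with estradiol against 27.3 with vehicle (log2 0.57, 0.28 to 0.85), the largest ratio of the 4 glycosylases. By phase UNG was at 19.3 CPM in G1, 79.1 in S and 16.5 in G2M with vehicle, and at 31.2, 85.2 and 16.6 with estradiol. UNG was thus highest in S, like the GU window, but was no higher in G2M than in G1, unlike the GU window. TDG ran at 109, 75.3 and 118 CPM with vehicle and 117, 91.2 and 123 with estradiol, lowest in S. Over all cells TDG was at 107 and 112 CPM, SMUG1 at 24.6 and 24.1, MBD4 at 66.8 and 69.7 and APEX1 at 172 and 183. Cluster 1 had the most UNG of all clusters, 85.3 CPM with vehicle and 79.3 with estradiol, while cluster 3, with the highest GU window, had 28.9 and 54.4. The counting could split TDG reads with processed pseudogenes.

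All 17 genes of the uracil excision list (glycosylases, APEX1 and APEX2, gap filling and ligation, PARP signalling, DUT and PCNA) passed the minimum of 50 UMIs in the all-gene rows. The estradiol value was above the vehicle value for 14 of them, and 0 of 17 differed by 1.5-fold or more in either direction, where 10.5% of 10977 genes did. The median log2 ratio of the list was 0.28, against -0.03 over all genes tested. In the targeted panel rows 5 of the 17 were measured, 4 were above, and 0 passed 1.5-fold, against 15.1% of 940 genes. Their median was 0.31 against -0.11 over the panel. The share of all genes, or of panel genes, with a higher estradiol value was not counted. Some genes of the list were higher in S than in G1, such as PCNA (288 against 58.9 CPM with vehicle), and others, such as TDG, were not. The estradiol library had more S cells, 977 of 3367 against 773 of 4940, and the part of phase in these ratios was not tested. Transcript levels were not tested for any relation to the GU profile.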

How the data were processed

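The deposited matrix holds natural log values per cell, per the file headers and values. Beside it the authors deposited UMI counts per cell for each block of rows, with each cell's treatment, phase and cluster. Per the submitters' processing notes, the tools were Bowtie2 2.3.2, Cell Ranger 3.0.2, UMI-tools 0.5.3, SAMtools and cutadapt 1.8.3, and the build hg38; their roles are not stated there. Undoing this transform (each count scaled to 10000 per cell and block, then 1 added) gave whole counts within 1e-06 for 100% of values, and they summed to the deposited totals in 100% of cells. The planned design had assumed counts, so recovered counts were used.

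UMIs were summed over cells and divided by the hairpin's total. Ratios have exact conditional 95% intervals and shares exact binomial (Clopper-Pearson) ones, for counting error only (Python 3.11.15, scipy 1.17.1), and the scripts were tested on simulated data. Median GU UMIs per cell were 194 with vehicle and 261 with estradiol. Called means 1.5-fold or more, among positions with at least 500 UMIs or genes with at least 50. Positions named singly had at least 1% of GU UMIs in either library, lay in the window, or had 1 of the 5 highest or 5 lowest ratios; exceptions are named. The members (a hairpin named in the files), the window and the gene list were chosen for description with earlier results of these data known. Phase and cluster cells came from the deposited annotation, and values for a phase within a cluster needed 50 cells. No deposited cell was left out unless stated. No doublet caller was run; the 5% of cells with most repair UMIs were left out instead as an alternative. Other alternatives changed the window, denominator, cell weighting, depth and count minimum. Panel rows are the commercial targeted genes, and the sources used here do not say how the all-gene rows were made.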

Additional observations from a re-analysis of the deposited data

Results flagged for a closer look

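The GU window share moved in opposite directions with estradiol in different clusters of the authors' annotation, with intervals for counting error that excluded 0. The log2 ratio of estradiol to vehicle was 0.10 in cluster 0 and 0.14 in cluster 2, and -0.0651 in cluster 1 and -0.23 in cluster 5. With 1 library per treatment, the difference between clusters was not tested.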

How the results depend on the processing

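No paired analysis was possible because treatments have 1 library each, with no replicates to pair. Phases and clusters, which both libraries hold, are given per library. For the same reason no replicate could be left out. The GU window ratio of estradiol to vehicle (log2 0.23) kept its value within its counting interval under 7 of 14 alternatives. It was 0.18 over UMIs of all repair substrates, 0.25 with cells thinned to 20 GU UMIs, 0.30 as a ratio of median cells, 0.14 with equal weight to phases and 0.0233 with both libraries at the vehicle mix of clusters. It was -0.00598 with equal weight to clusters and -0.00113 at the estradiol mix of clusters. These values near 0 lie within the width of the counting interval, so the difference was not seen at equal cluster weights, rather than turned. The clusters may have used repair rows, so weights by cluster may not be independent of the window. S over G1 with vehicle (0.63) stayed positive under all 11 alternatives and moved to 0.56 over all repair substrates, 0.59 with equal weight per cell, 0.59 thinned, 0.84 for median cells and 0.29 within clusters 1 and 3. With estradiol (0.55) it stayed positive under all 11 and moved to 0.49 over all repair substrates, 0.52 without cluster 7, 0.70 for median cells and 0.40 within clusters 1 and 3. The GU share of repair UMIs (-0.05) was -0.0426 with equal weight to phases and lay from -0.05 to -0.06 in the other 3. The count of positions 1.5-fold apart was 0 under all 6. The equal-cluster, cluster-mix, median-cell and within-cluster alternatives were chosen after seeing the data. Depth limits rare ends: 7 GU positions held 2181 UMIs in all.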

Other observations

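The GU window had no steady relation to repair depth. With cells ranked by repair UMIs and split into 5 equal parts, shallowest first, the vehicle library had 7.97%, 6.29%, 6.73%, 7.33% and 7.72% of its GU UMIs in the window, and the estradiol library 10.2%, 8.08%, 8.46%, 7.99% and 8.38%. The shallowest part was the highest in both libraries. GU's share of repair UMIs was lower at every step, from 23.1% to 18.5% with vehicle and from 22.2% to 18.0% with estradiol. The 25 vehicle cells with fewer than 50 GU UMIs had 16.2% in the window, and the 226 with 50 to 99 had 10.8%. With estradiol the 6 cells under 50 had 8.22% and the 51 with 50 to 99 had 12.0%, so the order there differed.

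Some cells had far larger GU windows than the rest. Of the cells with at least 100 GU UMIs, 63 with vehicle (1.34%) and 69 with estradiol (2.08%) had 30% or more of their GU UMIs in the window, and they supplied 6.50% and 9.61% of its UMIs. Between 25 and 35% lay 48 and 36 cells, so the limit of 30% marks no gap. The highest cells reached 75% and 80%, and 13 vehicle cells were at 0. Cells at 30% or more had fewer repair UMIs than the others, with medians of 750 against 956 with vehicle and 890 against 1326 with estradiol.

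The likeness of the GU profile to those of other hairpins depended on the range of positions. Over all 61 positions Spearman's rho was highest with Uracil1 (0.77), then riboG (0.74), CI (0.73) and Uracil3 (0.72), and was 0.67 with Normal and 0.61 with Abasic. Over positions 44 to 61 Spearman's rho between hairpins was 0.98 with Abasic, 0.93 with Uracil2 and 0.91 with Uracil1, with both libraries summed. Over positions 1 to 43 it was 0.81 with Abasic, 0.73 with Uracil1 and 0.48 with Normal. These are across positions of 2 oligos, which are not replicates. Across the 16 combinations of library and cluster, the GU window followed that of Uracil3 (r 0.90) and Uracil2 (0.80) more closely than that of Uracil1 (0.65), Abasic (-0.61), riboG (0.49) or Normal (0.16).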
